A study of Mus musculus with 163 samples.

Results

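The oxidative phosphorylation genes of the nucleus were taken as all rows whose gene identifier maps to a mouse symbol beginning with Ndufa, Ndufb, Ndufc, Ndufs, Ndufv, Uqcr or Atp5 or with Cox4 to Cox8, together with the Sdh genes and Cyc1, leaving out pseudogene symbols ending in -ps. The rule found 75 of the 21950 genes in the deposited count table, and 22 further RefSeq genes that meet it are not analysed here. Of the 75 members, 28 belong to complex I, 4 to complex II, 7 to complex III, 19 to complex IV and 12 to complex V, and 5 are assembly factors of complex I that share the Ndufa prefix. The rule used names alone and no measured value.

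The respiratory chain lies in the inner mitochondrial membrane. Complex I takes electrons from NADH and complex II takes them from succinate, ubiquinone carries them to complex III, cytochrome c carries them on to complex IV, and complex V makes ATP from the proton gradient that the chain builds. Most subunits are coded in the nucleus and a small core by mitochondrial DNA. Growing mouse oocytes store RNA and multiply their mitochondria, and they draw on pyruvate supplied by granulosa cells, so the mRNAs of this machinery form part of the maternal store.

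The study compared single mouse oocytes at the growing stage (GROs) and the fully grown stage (FGOs) in 7 groups that had passed through different numbers of in vitro steps. The BVSC-iPSC groups, 23 GROs and 24 FGOs, came from 1 female induced pluripotent line made from adult tail tip fibroblasts and carrying the Blimp1-Venus and Stella-ECFP reporters. These cells were turned into primordial germ cell-like cells (IVP), aggregated with somatic cells of E12.5 female gonads of outbred Swiss Webster mice from which germ cells had been depleted, differentiated in culture with fulvestrant for part of the time (IVD) and, for FGOs, grown as follicles with follicle-stimulating hormone, BMP15 and GDF9 (IVG). The gonad-derived groups, 24 GROs and 24 FGOs, came from dissociated and reaggregated E12.5 gonads and passed through IVD and IVG without IVP. The 24 6 dpp FGOs came from follicles dissected at 6 days post partum and passed through IVG only, and 24 GROs and 20 FGOs grew in vivo. The labels give neither the strain nor the age of the in vivo animals. An oocyte of the iPSC-derived groups could in principle derive from a gonadal germ cell that escaped depletion. The strain of the line is not given in the sources used here, and any difference of genetic background between the sources cannot be told apart from the IVP step. IVG was also longer for iPSC-derived follicles than for gonad-derived and 6 dpp follicles, so that among FGOs its duration and the IVP step cannot be told apart either.

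Each library was 1 oocyte and the labels name no animal or culture behind it. A group was therefore treated as 1 sample, no test between groups was made, and the spread over oocytes of a group is given in place of an error between independent samples. Levels are reads per 1000000 reads in genes (CPM), as shares of a library, and the total RNA of an oocyte was not measured. Pooled levels carry exact Poisson 95% intervals that cover counting error only. Differences are log2 ratios of pooled CPM after adding 0.5 CPM, and a gene is called higher or lower where it is past 1.5-fold. A ratio of this kind understates the difference of genes with low levels.

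Libraries held between 2.17 M and 13.7 M reads in genes (M, 1000000 reads), with a median of 6.93 M. All 12 oocyte markers had a median over oocytes above 1 CPM in every group, and the 3 blood markers found had a median of 0 in every group. The summed level of the oocyte markers was smaller in FGOs, with medians of 68961 CPM in GROs and 26293 CPM in FGOs of the iPSC-derived pair, 60572 and 30832 CPM in the gonad-derived pair and 71788 and 49271 CPM in vivo. The 12 granulosa markers found summed to medians between 241 and 398 CPM. Of these markers 5 to 7 had a median above 1 CPM in each group, and Amhr2 had a median of 0 in 6 of the 7 groups. 6 libraries had at least 29 members at one extreme of their group. Gonad-derived FGO 19 had 58 of the 75 members at the lowest level of its group, with a summed share of 0.555% of reads from 6.95 M reads. In iPSC-derived GRO 8, which the study left out on size, 47 members were at the highest level of their group, and in in vivo GRO 10 39 were at the lowest. In vivo GRO 19 and iPSC-derived FGO 8 each had 31 members at the highest level of their group, and gonad-derived GRO 15 had 29. By somatic markers, the library of 6 dpp FGO 12 had a granulosa marker sum of 1913 CPM against a group median of 331 CPM and a theca and stroma sum of 189 CPM against 5.66 CPM. The next highest theca and stroma sum among 6 dpp FGOs was 63.1 CPM. Smaller excesses were a theca and stroma sum of 32.8 CPM in gonad-derived FGO 18 (median 3.61) and a granulosa sum of 603 CPM in in vivo FGO 19 (median 330.0). The study left out 9 of the 163 oocytes on size, 5 of them in vivo FGOs, and member ratios that move past or back over the 1.5-fold line, or by more than 1.5-fold, without these oocytes are given both ways below. The reconstituted GROs were also described by the study as larger than the in vivo ones, and diameters were not analysed here.

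4 promoters are shown here because their genes carry the findings. Uqcrc1 differed most from the rest of complex III during growth, Cox6b1 and Cox6b2 are a somatic and a germ cell form of the same subunit with different behaviour, and Ndufs5 differed between iPSC-derived and gonad-derived oocytes. Each sequence is the RefSeq window from 250 bases before to 50 bases after the annotated start on GRCm38.p6, written on the gene's own strand. Capitals mark the letters of 1 of 3 motifs searched on both strands, GCATGCGC of the NRF1 type, CCGGAAG of the ETS type and AAGATGGCG of the YY1 type.
Uqcrc1 at chr9:108936398-108936697 (+): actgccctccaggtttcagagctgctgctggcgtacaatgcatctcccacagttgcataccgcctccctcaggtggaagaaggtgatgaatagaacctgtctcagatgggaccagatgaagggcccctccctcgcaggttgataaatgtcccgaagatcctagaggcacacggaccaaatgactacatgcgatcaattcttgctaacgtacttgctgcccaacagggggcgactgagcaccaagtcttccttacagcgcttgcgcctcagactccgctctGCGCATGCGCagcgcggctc
Cox6b1 at chr7:30626065-30626364 (-): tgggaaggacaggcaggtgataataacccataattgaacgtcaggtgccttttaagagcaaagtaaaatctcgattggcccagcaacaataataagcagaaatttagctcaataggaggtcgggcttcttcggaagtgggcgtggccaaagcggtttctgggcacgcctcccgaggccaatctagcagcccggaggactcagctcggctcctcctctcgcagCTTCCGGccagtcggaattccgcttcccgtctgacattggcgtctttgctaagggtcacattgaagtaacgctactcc
Cox6b2 at chr7:4753045-4753344 (-): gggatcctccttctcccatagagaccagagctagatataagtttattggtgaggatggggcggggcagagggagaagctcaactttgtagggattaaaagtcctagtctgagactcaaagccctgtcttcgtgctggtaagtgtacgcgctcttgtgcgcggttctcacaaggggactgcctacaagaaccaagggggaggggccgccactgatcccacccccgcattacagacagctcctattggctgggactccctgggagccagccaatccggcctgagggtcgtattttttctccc
Ndufs5 at chr4:123718137-123718436 (-): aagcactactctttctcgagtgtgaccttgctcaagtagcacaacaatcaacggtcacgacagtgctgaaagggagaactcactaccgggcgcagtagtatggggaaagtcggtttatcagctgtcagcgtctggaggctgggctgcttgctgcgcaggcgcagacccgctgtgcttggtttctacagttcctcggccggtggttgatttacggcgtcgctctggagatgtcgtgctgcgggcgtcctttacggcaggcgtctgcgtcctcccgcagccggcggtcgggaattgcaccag

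The Uqcrc1 window held GCATGCGC and, overlapping it, the same letters on the other strand, beginning 30 bases after the start. The Cox6b1 window held CCGGAAG on the opposite strand, 28 bases before the start, and the windows of Cox6b2 and Ndufs5 held none of the 3 motifs. A window was available for 61 members. GCATGCGC lay in 9 of them (14.8%, against 3.05% of the windows of 27025 genes), CCGGAAG in 16 (26.2%, against 9.93%) and AAGATGGCG in 6 (9.84%, against 1.64%). Among the 16539 genes of the count table with a window, these backgrounds were higher, at 3.80%, 11.9% and 2.04%. At least 1 motif lay in 25 windows (41.0%, against 13.6%). The ETS and YY1 letters can overlap in AAG, and both were found in 1 member. These are matches of letters and describe no binding.

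Summed over all members, oxidative phosphorylation genes took about 1% of the reads of an oocyte, and the median share was smaller in FGOs than in GROs of the same source. In vivo GROs ranged from 0.872% to 1.49% with a median of 1.09%, and in vivo FGOs from 0.830% to 1.02% with a median of 0.920%. Gonad-derived GROs ranged from 0.968% to 1.43% with a median of 1.17%, and gonad-derived FGOs from 0.555% to 1.01% with a median of 0.932%. iPSC-derived GROs ranged from 0.969% to 1.43% with a median of 1.12%, and iPSC-derived FGOs from 0.893% to 1.27% with a median of 1.03%. Oocytes of the GRO and FGO stages overlapped in all 3 pairs, and the medians of the iPSC-derived pair lay closest together. The 6 dpp FGOs, with a median of 0.939% and a range of 0.826% to 1.08%, overlapped iPSC-derived FGOs, with 7 of 24 below the lowest of them. Their highest share was that of 6 dpp FGO 12, the library with high somatic markers, and the part of those cells in it was not tested.

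**Figure D1:**
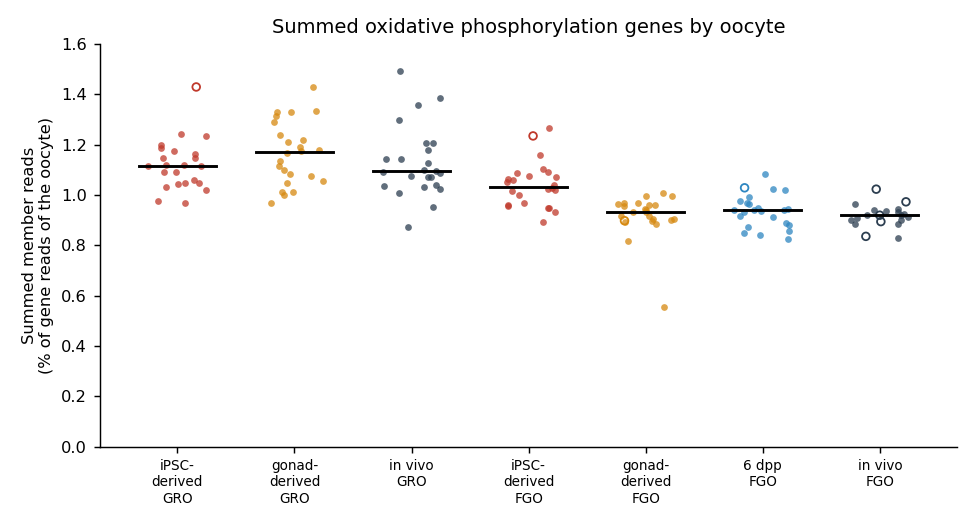
Summed reads of the 75 members as a percentage of the gene reads of each oocyte (y axis) by group (x axis). Points are oocytes, open circles are oocytes the study left out on size, and black bars are medians, which lie between 0.920% and 1.17%.

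The complexes took unequal parts in this difference. Complex I, the NADH dehydrogenase, had median shares of 0.341% in in vivo GROs and 0.257% in in vivo FGOs, and 0.358% and 0.262% in the gonad-derived pair. Complex II, the succinate dehydrogenase that also belongs to the citric acid cycle, had similar median shares in both in vivo stages (0.0916% and 0.0934%). Among the in vivo FGOs kept on size its median was 0.0963%. Complex V, the ATP synthase, had median shares of 0.272% and 0.228% in vivo. In iPSC-derived FGOs complex I had a median share of 0.300%, above the 0.257% to 0.263% of the other FGO groups.

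Within a complex the levels per exonic length spread widely, although the subunits are assembled in fixed proportion. In in vivo FGOs, complex I ran from Ndufs1, the largest iron-sulfur subunit, at 16.7 CPM per 1000 exonic bases to Ndufb11, an X-linked membrane subunit, at 208. Complex III ran from Uqcrc1 at 15.4 to the hinge protein gene Uqcrh at 273, and complex II from Sdha at 75.3 to Sdhd at 234. In complex IV Cox5a was highest at 419, and in complex V the values ran from Atp5l at 9.79 to Atp5e at 764, the highest of all members. The assembly factors ran from Ndufaf1 at 1.42 to Ndufaf4 at 116. Members have 432 to 3752 exonic bases in the authors' gene models, with 45 of 75 under 1000. Only reads that mapped to 1 place were counted, 8 members have a RefSeq copy named -ps, and 18 have exons that overlap a gene on the opposite strand, so that the level of a short or copied gene is uncertain.

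Growth in vivo was followed by comparing in vivo FGOs with in vivo GROs. Of the 73 members that passed a filter of 1 CPM in at least 3 oocytes, 24 were lower in FGOs, or 32.9%, where 26.6% of all 13148 genes were lower. 2 members were higher, or 2.74%, where 18.7% of all genes were higher. With TMM or DESeq2 scaling 16 members were lower and 3 higher, where Cox6b1, Cox6c, Ndufa4, Ndufb10, Ndufb7, Ndufs7, Ndufv3 and Sdhb fell back over the 1.5-fold line. Without either scaling, the lower share was thus near the background and the higher share was below it. The median ratio was -0.34 over members and -0.11 over all genes, with 62 of 73 members below 0. Without in vivo GRO 10 the median was -0.35 and the counts were again 24 and 2, and without in vivo GRO 19 the median was -0.32 and the counts were 23 and 2. With only the oocytes kept on size, Ndufa6 (-0.53, then -0.61) and Ndufaf4 (0.55, then 0.62) also passed 1.5-fold. Of the cell type markers, 6 of 12 oocyte markers were lower in FGOs and 1 was higher, with a median of -0.65, and 6 of 11 tested granulosa markers were higher and 1 was lower, with a median of 0.65. Their part in the member ratios was not tested. Cox7b2 and Cox8b, tissue-restricted forms of complex IV subunits, did not pass the filter in any comparison. Cox8b, the heart and muscle form, had 0 reads in 6 groups and 2 reads in gonad-derived FGOs, where 3 reads would be 0.0181 to 0.0207 CPM in the pooled groups.

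Ratios also differed by complex, and not always in the same way as the shares. The median was -0.42 for complex I, with 10 of 28 members lower and none higher, -0.42 for complex IV, with 7 of 17 lower, and -0.30 for complex V, with 2 of 12 lower and all 12 below 0. Complex III had a median of -0.20, with 3 of 7 lower. Its median summed share was 0.122% in in vivo GROs and 0.0925% in in vivo FGOs. That of complex IV was 0.231% and 0.192%. Complex II had a median of -0.00. Its catalytic subunit Sdha was at -0.30, the iron-sulfur subunit Sdhb at -0.60, and the membrane anchors Sdhc and Sdhd at 0.29 and 0.36. The assembly factors had a median of 0.15 with values on both sides, Ndufaf1 at -1.60, Ndufaf4 at 0.55 and Ndufaf6 at 1.68.

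**Figure D2:**
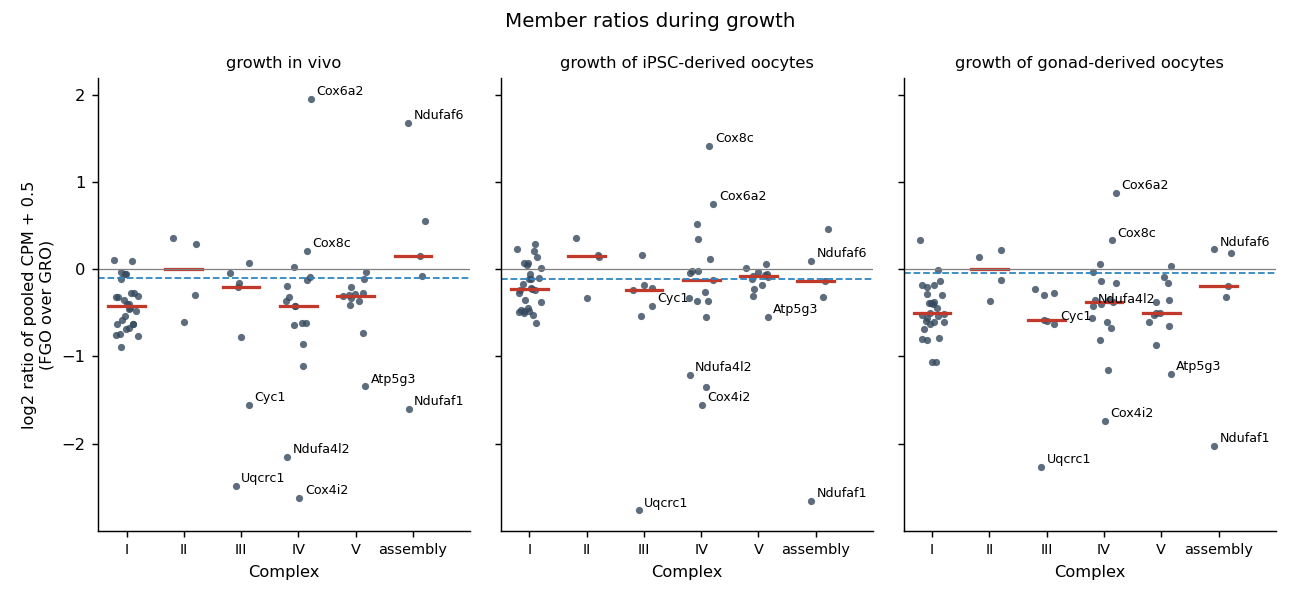
Log2 ratio of pooled CPM plus 0.5 in FGOs over GROs (y axis) for each tested member by complex (x axis), in vivo, in iPSC-derived and in gonad-derived oocytes. Red bars are medians per complex and the dashed line is the median of all genes; Uqcrc1 lies at -2.49, -2.76 and -2.27, below all other members of complex III.

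Uqcrc1 codes for core protein 1 of complex III, a relative of the mitochondrial processing peptidase that stands at the matrix side of the complex (RefSeq gene on GRCm38.p6, chr9:108936648-108949641, + strand). In vivo GROs ranged from 143 to 245 CPM with a median of 190 CPM. In vivo FGOs ranged from 4.47 to 117 CPM with a median of 26.5 CPM, and every one lay below every GRO. The pooled levels of 190 and 33.5 CPM gave a log2 ratio of -2.49. The 5 in vivo FGOs that the study left out on size lay between 43.1 and 117 CPM and the 15 it kept between 4.47 and 60.7 CPM, and the ratio without the 5 was -3.23. The highest value of the group was that of an oocyte left out on size.

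The difference was present in each of the pairs that passed through culture. iPSC-derived GROs ranged from 115 to 260 CPM (median 184) and iPSC-derived FGOs from 9.55 to 47.1 CPM (median 25.6), a pooled ratio of -2.76. Gonad-derived GROs ranged from 101 to 222 CPM (median 171) and gonad-derived FGOs from 4.89 to 64.1 CPM (median 29.5), a ratio of -2.27. The 6 dpp FGOs lay between 25.4 and 74.2 CPM with a median of 44.5 CPM. No FGO of a cultured group overlapped a GRO of its own source.

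The partner core protein Uqcrc2 did not share this difference. Its median was 437 CPM in in vivo GROs and 420 CPM in in vivo FGOs, with ranges of 322 to 509 and 368 to 468 CPM, and the log2 ratio was -0.04. The other growth ratios of Uqcrc2 were -0.24 in iPSC-derived and -0.23 in gonad-derived oocytes. Uqcrc2 had the smallest spread over oocytes of all tested members, with a median SD of 0.11 on the log2 scale within groups. Per exonic base the median oocyte had 0.488 times as much Uqcrc1 as Uqcrc2 among in vivo GROs and 0.0708 times as much among in vivo FGOs, or 0.0360 times among the 15 in vivo FGOs kept on size. For iPSC-derived oocytes these values were 0.405 and 0.0657, and for gonad-derived oocytes 0.357 and 0.0782. The 2 core proteins occur in equal number in the assembled complex.

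**Figure D3:**
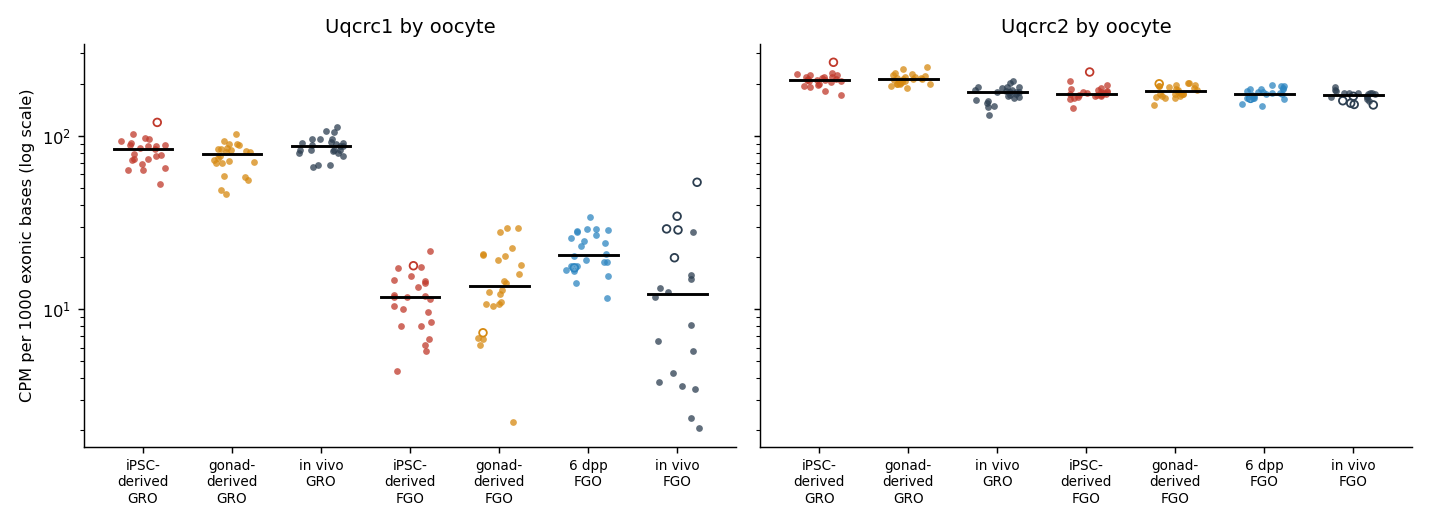
CPM per 1000 exonic bases on a log axis for Uqcrc1 (left) and Uqcrc2 (right) by oocyte and group. Open circles are oocytes left out on size and bars are medians; the FGO groups lie below the GRO groups for Uqcrc1 and beside them for Uqcrc2.

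Cyc1, the cytochrome c1 subunit that passes electrons to cytochrome c, was also lower in FGOs in vivo, where it ranged from 15.2 to 44.4 CPM (median 24.0) against 39.9 to 137 CPM (median 71.0) in GROs. The ratio was -1.55 in vivo, or -1.78 with the oocytes kept on size, and -0.62 in gonad-derived oocytes. In iPSC-derived oocytes the pooled levels of 59.5 CPM in GROs and 44.3 CPM in FGOs lay within 1.5-fold. Uqcrh and the Rieske iron-sulfur protein gene Uqcrfs1 were at -0.16 and -0.20 in vivo. In gonad-derived oocytes Uqcrfs1 was at -0.59. Neither Cyc1 nor Uqcrfs1 passed 1.5-fold in that pair with TMM (-0.56 and -0.52) or DESeq2 scaling (-0.58 and -0.54), or without gonad-derived FGO 19 (-0.58 and -0.54).

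Among complex IV members, Cox4i2 had the lowest ratio in vivo. This gene codes for the form of subunit 4 known from lung and from low oxygen, and its ubiquitous partner Cox4i1 is not analysed here. In vivo GROs ranged from 8.82 to 62.5 CPM and in vivo FGOs from 2.19 to 9.16 CPM (median 4.47), a pooled ratio of -2.62. The ranges of the 2 stages touched at a single GRO. The ratio was -1.56 in iPSC-derived and -1.74 in gonad-derived oocytes, where FGO medians were 8.97 and 8.39 CPM. The in vivo FGOs had the lowest median of the 4 FGO groups, and 6 dpp FGOs, at a median of 8.80 CPM, were higher than in vivo FGOs by a pooled log2 ratio of 0.90.

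Cox6b2, the testis and germ cell form of subunit 6B, was lower in FGOs in each pair, with ratios of -0.86 in vivo, -1.35 in iPSC-derived and -1.16 in gonad-derived oocytes. The ubiquitous Cox6b1 was at -0.62, -0.26 and -0.61. As a share of both forms per exonic length, Cox6b2 had a median of 48.8% in in vivo GROs and 46.0% in in vivo FGOs. In iPSC-derived oocytes the median was 45.7% in GROs and 27.5% in FGOs, with a range of 17.7% to 41.2% in FGOs. In gonad-derived oocytes it was 49.0% and 38.6%. The 2 in vivo stages therefore had similar medians, and the FGOs that grew in culture had smaller medians of the germ cell form, 36.4% in 6 dpp FGOs. Single oocytes overlapped, at 40.1% to 53.8% in in vivo FGOs, 30.0% to 71.7% in gonad-derived FGOs and 26.5% to 44.4% in 6 dpp FGOs. The value of 71.7% was that of gonad-derived FGO 19.

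Cox6a2, the heart and muscle form of subunit 6A, had the opposite direction. In vivo GROs ranged from 2.70 to 23.8 CPM (median 7.59) and in vivo FGOs from 20.8 to 47.0 CPM (median 35.7), a ratio of 1.95. Among oocytes kept on size the 2 stages did not overlap, with FGOs at 28.9 CPM and above. The ratio was 0.75 in iPSC-derived oocytes, with FGOs between 2.03 and 13.5 CPM, and 0.88 in gonad-derived oocytes, with FGOs between 2.01 and 30.5 CPM. The ubiquitous Cox6a1 was at -0.43 in vivo. Cox6a2 made up a median of 2.14% of the 2 forms per exonic length in in vivo GROs and 11.7% in in vivo FGOs. It remained the minor form in every group. Cox6a2 shares 70 of 680 exonic bases with Itgad on the opposite strand, which was at 0.614 CPM or below in all groups.

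Cox8c, the testis form of subunit 8, was higher in the iPSC-derived pair, at 1.76 CPM in GROs and 5.54 CPM in FGOs (1.42), and within 1.5-fold in the other growth comparisons. The FGOs ranged from 2.53 to 18.3 CPM with a median of 3.95 CPM, and the difference of this ratio between pairs was not tested. Cox8a, the ubiquitous form, was at -0.13 in the same pair. Cox7a1, the muscle form of subunit 7A, had a low level, at 1.40 CPM in in vivo GROs and 0.379 CPM in in vivo FGOs. Cox7a2 had 279 and 223 CPM in the same groups and its relative Cox7a2l, a supercomplex factor, 109 and 94.7 CPM. Cox7b2 had at most 0.0790 CPM in any group, and the X-linked Cox7b had 151 CPM in in vivo GROs and 139 CPM in in vivo FGOs. The other X-linked member, Ndufb11, had 260 and 202 CPM, and both lay within 1.5-fold between these stages.

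Ndufa4l2, a relative of the complex IV subunit Ndufa4 that is known as a hypoxia-induced gene, had a ratio of -2.15 in vivo that rested on a single oocyte. In vivo GRO 3 had 397 CPM, the next highest GRO 15.4 CPM and the median 5.93 CPM, and without it the ratio was -0.27. Single oocytes stood apart in other groups too, with 404 CPM in gonad-derived GRO 7 (next 39.4), 150 CPM in iPSC-derived GRO 8 (next 34.9), 156 CPM in gonad-derived FGO 1 (next 72.0) and 78.1 CPM in 6 dpp FGO 11 (next 9.38). Ndufa4l2 had the largest spread over oocytes of all members, with a median SD of 1.30. Its neighbour Shmt2, which shares 32 of its 1095 exonic bases on the opposite strand, was at 332, 268 and 205 CPM in the 3 GROs named, against group medians of 86.7, 102 and 105 CPM. Cox7a1 was at 11.6 CPM in in vivo GRO 3 against a median of 0.878 CPM.

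In complex V the c-ring gene Atp5g3 had the lowest ratio. In vivo GROs ranged from 38.8 to 118 CPM (median 67.7) and in vivo FGOs from 18.1 to 49.4 CPM (median 25.7), a ratio of -1.34. The ratio was -1.20 in gonad-derived oocytes, with FGOs between 12.0 and 36.1 CPM and all of them below the GROs. In iPSC-derived oocytes the levels were 69.6 and 47.6 CPM, within 1.5-fold. Atp5g1, which codes for the same mature c subunit, took a median of 21.1% of the pair per exonic length in in vivo GROs and 35.7% in in vivo FGOs. The catalytic subunit gene Atp5b was at 571 and 558 CPM in vivo, a ratio of -0.03. Atp5g2 is not analysed here.

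Complex I members lay closer together. Ndufb9, an LYR protein of the membrane arm, was the lowest in vivo at -0.89, with GROs at 116 to 218 CPM (median 168) and FGOs at 76.8 to 113 CPM (median 88.9). Every FGO lay below every GRO. Ndufb8, Ndufa5, Ndufa11 and Ndufa7 followed at -0.76, -0.75, -0.75 and -0.68. Ndufaf1, a factor of early complex I assembly, was lower in all pairs (-1.60 in vivo, or -2.05 with the oocytes kept on size, -2.66 in iPSC-derived and -2.02 in gonad-derived oocytes). It was a gene of low level, at 7.39 CPM in in vivo GROs and 2.10 CPM in in vivo FGOs, and at 0.367 CPM in iPSC-derived FGOs. Ndufaf6, another assembly factor, was higher in in vivo FGOs, at 6.21 to 13.0 CPM against 0.701 to 4.78 CPM in GROs.

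Complete separation of the oocytes was uncommon among members. In vivo, every FGO was above every GRO for 2 members, Ndufaf4 and Ndufaf6 (2.74% of 73, where 2.26% of all genes were separated in this way). Every FGO was below every GRO for 2 members, Ndufb9 and Uqcrc1 (against 1.19% of all genes). With only the oocytes kept on size, 4 members were separated upward, Cox6a2, Ndufaf4, Ndufaf6 and Sdhd (5.48% of members, against 7.13% of all genes). Under the same condition 10 were separated downward (13.7% of members, against 7.06% of all genes), namely Atp5a1, Atp5d, Atp5g3, Cox6b2, Cox6c, Cyc1, Ndufb8, Ndufb9, Sdhb and Uqcrc1.

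Growth of iPSC-derived oocytes showed a smaller difference of the members. 6 of 73 were lower (8.22%), where 27.6% of 13115 genes were lower, and 2 were higher, where 15.2% of genes were higher. Both shares lay below their background. The median was -0.17 against -0.11 for all genes, and 5 members were lower without iPSC-derived GRO 8 and 6 without iPSC-derived FGO 8. In this pair 9 of 12 oocyte markers were lower, with a median of -1.32, and 2 of 9 tested granulosa markers were higher and 2 lower. Scaling by TMM or DESeq2 size factors moved the median of all genes by 0.15 and 0.13, and the member median then lay at 0.000279 and -0.02, so that the direction of the set in this pair depended on the scaling. The 6 lower members were Uqcrc1, Ndufaf1, Cox4i2, Cox6b2, Ndufa4l2 and Ndufv3, a flavoprotein fragment subunit of complex I. Ndufv3, at -0.62, was within 1.5-fold with TMM (-0.45) and DESeq2 scaling (-0.47). Cox5a (0.69 with TMM and 0.67 with DESeq2 scaling) and Ndufaf4 (0.63 and 0.61) were then higher in addition to Cox6a2 and Cox8c. For Ndufa4l2 the ratio of -1.21 was -0.37 with the oocytes kept on size, which leave out iPSC-derived GRO 8. All oocytes were separated downward for 2 members, Ndufaf1 and Uqcrc1 (against 5.62% of all genes), and upward for 0 (against 2.39%).

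Growth of gonad-derived oocytes resembled growth in vivo in its counts. 24 of 73 members were lower (32.9%), where 21.0% of 13068 genes were lower, and Cox6a2 alone was higher, where 14.7% of genes were higher. With TMM or DESeq2 scaling 14 and 15 members were lower, while the 21.0% of all genes was found without either scaling. In this pair 7 of 12 oocyte markers were lower, with a median of -0.88, and 4 of 9 tested granulosa markers were higher and 1 lower. The member median was -0.40 against -0.05 for all genes, with 64 members below 0. Complex III had a median of -0.59, complex I of -0.51 and complex V of -0.50. Without gonad-derived FGO 19 the median was -0.36 and 18 members were lower, and without gonad-derived GRO 15 it was -0.38 with 20 lower. With the oocytes kept on size 22 were lower, Atp5j2 and Ndufa11 then lying at -0.58 each. All oocytes were separated downward for 6 members, Atp5g3, Cox6c, Ndufa9, Ndufb9, Uqcrc1 and Uqcrfs1 (8.22%, against 2.62% of all genes), and upward for 0 (against 1.36%).

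The 3 growth comparisons share no oocytes. 5 members were lower in each of them, Cox4i2, Cox6b2, Ndufaf1, Ndufv3 and Uqcrc1, which is 20.8% of the list in vivo and 83.3% of the iPSC-derived list. With TMM or DESeq2 scaling 4 were, Ndufv3 being lost. Of the 12478 genes tested in all 3, 13.8% were lower in each, against 6.85% of the members. The lists in vivo and from gonads, of 24 members each, shared 16, or 66.7% of each, and shared 8 with either scaling and 12 without gonad-derived FGO 19. Among all 12681 genes tested in both, the shared genes were 56.8% of the list in vivo and 71.6% of the gonad-derived list. Cox6a2 was the 1 member higher in all 3 (1.37%, against 7.12% of genes). Irrespective of the threshold, 49 of 73 members were below 0 in all 3 comparisons (67.1%, against 37.9% of genes) and 7 were above 0 in all 3 (9.59%, against 26.3%).

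The IVP step was examined by comparing iPSC-derived with gonad-derived oocytes at the same stage. Among GROs the members differed little, with a median of -0.06 against -0.00 for all 13422 genes. 0 members were higher, where 6.69% of all genes were higher, and 3 were lower (4.11%), where 5.98% were. The 3 were Ndufs5, Cox6a2 and Ndufa4l2. The ratio of Ndufa4l2 (-0.99) was 0.09 without gonad-derived GRO 7 and -1.79 with the oocytes kept on size, so that its size depended on single oocytes. Without the highest oocyte of each group its pooled levels were 7.75 CPM in iPSC-derived and 13.0 CPM in gonad-derived GROs. The medians were 5.72 and 10.8 CPM. Of the cell type markers 1 of 12 oocyte markers was higher, 0 of 11 granulosa markers differed and 1 of 3 tested theca and stroma markers was lower.

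Ndufs5 codes for an accessory subunit on the intermembrane face of complex I (chr4:123712710-123718186, - strand, GRCm38.p6). iPSC-derived GROs ranged from 11.7 to 21.2 CPM with a median of 14.7 CPM, and gonad-derived GROs from 21.2 to 44.6 CPM with a median of 29.7 CPM. The highest iPSC-derived GRO was replicate 8, 1 of the oocytes left out on size, and the next reached 19.2 CPM. The pooled levels of 14.8 and 30.8 CPM gave a log2 ratio of -1.03, and all 23 iPSC-derived GROs lay below the gonad-derived median. Among oocytes kept on size every iPSC-derived GRO lay below every gonad-derived GRO. This was true of 1 member and of 0.0894% of all genes.

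The same direction was found among FGOs. iPSC-derived FGOs ranged from 11.4 to 20.4 CPM with a median of 15.7 CPM, and gonad-derived FGOs from 9.35 to 31.7 CPM with a median of 25.4 CPM. The value of 9.35 CPM was that of gonad-derived FGO 19, and the next lowest was 19.6 CPM. All 24 iPSC-derived FGOs lay below the gonad-derived median, and the ratio was -0.68. The groups that never passed through a pluripotent line lay at 17.8 to 30.7 CPM (in vivo GROs), 21.7 to 34.2 CPM (6 dpp FGOs) and 15.7 to 27.5 CPM (in vivo FGOs). The median ratio of Ndufs5 to Ndufs4, another accessory subunit of complex I, per exonic length was 0.322 in iPSC-derived GROs, 0.332 in iPSC-derived FGOs and 0.504 to 0.692 in the other 5 groups. Ndufs5 has 1 RefSeq copy named -ps, and reads that fit both places were not counted, so that a difference in sequence between the sources of the oocytes cannot be told apart from a difference in level.

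**Figure D4:**
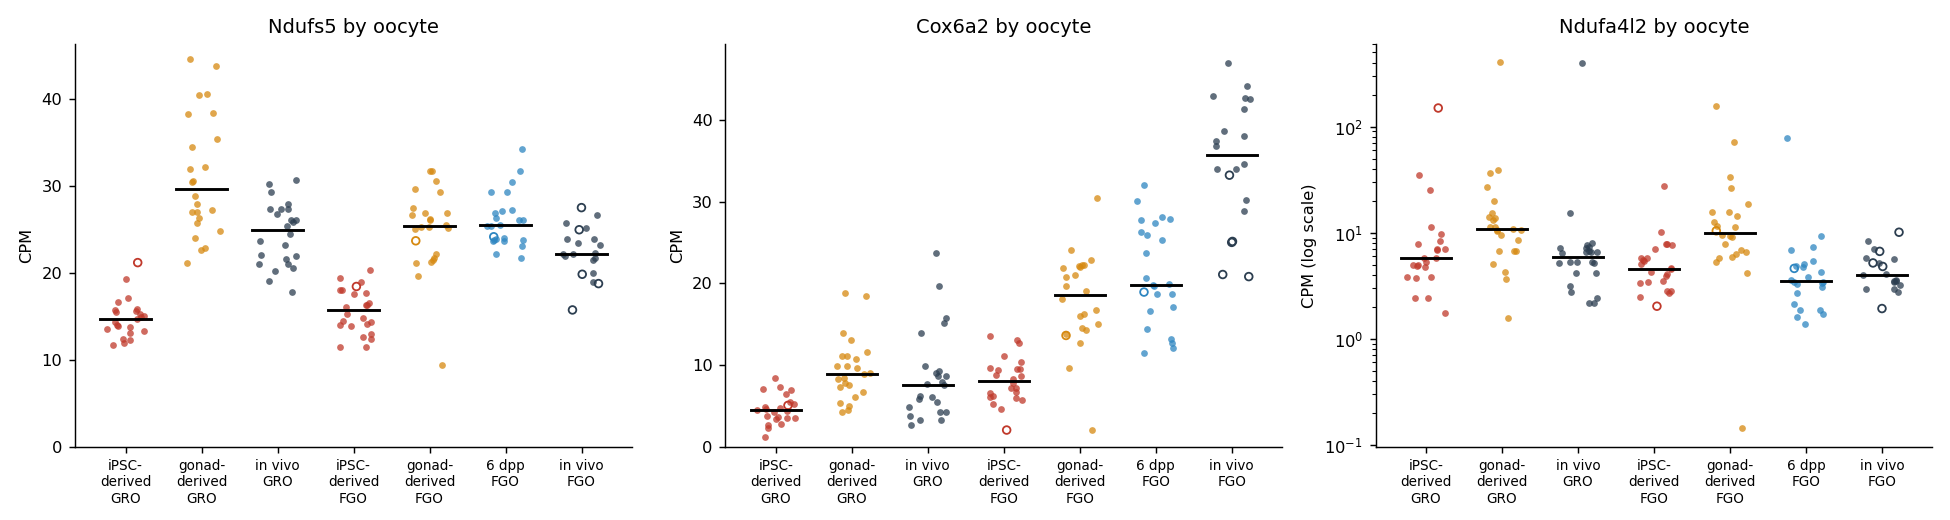
CPM of Ndufs5 and Cox6a2 (linear axes) and of Ndufa4l2 (log axis) by oocyte and group, with oocytes left out on size as open circles and medians as bars. Ndufs5 is low in both iPSC-derived groups, Cox6a2 is highest in in vivo FGOs, and single oocytes stand apart for Ndufa4l2.

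Cox6a2 was also lower in iPSC-derived oocytes at both stages. The ratio was -0.99 among GROs, from 9.64 CPM in gonad-derived to 4.61 CPM in iPSC-derived oocytes, and -1.12 among FGOs, from 18.1 to 8.09 CPM. Among FGOs the iPSC-derived oocytes reached 13.5 CPM, and the gonad-derived oocytes other than replicate 19 began at 9.63 CPM. The order of the FGO medians was 8.06 CPM in iPSC-derived, 18.5 CPM in gonad-derived, 19.8 CPM in 6 dpp and 35.7 CPM in in vivo oocytes. The middle pair overlapped almost completely.

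For the set as a whole, IVP in FGOs had the median farthest above that of all genes. The member median was 0.21 where that of all 13582 genes was -0.08, and 55 of 73 members were above 0. Few passed the threshold. 5 were higher (6.85%), where 6.1% of all genes were higher, and 3 were lower (4.11%), where 13.0% were. The 5 were Cox8c (1.05), Atp5g3 (0.89), the complex I subunits Ndufa7 (0.70) and Ndufc2 (0.62), and Atp5g1 (0.60), and the 3 were Ndufa4l2 (-1.77), Cox6a2 and Ndufs5 (-0.68, or -0.58 with DESeq2 scaling, within 1.5-fold). In complex V 11 of 12 members were above 0 with a median of 0.37, and in complex I 24 of 28 with a median of 0.23. Complexes II and III had medians of 0.07 each. Without gonad-derived FGO 19 the median was 0.16 and 3 members were higher, Ndufc2 and Atp5g1 then lying at 0.56 and 0.55, and without iPSC-derived FGO 8 it was 0.20 with 4 higher. Atp5g1 was at 0.57 with the oocytes kept on size. Of the markers, 2 of 12 for oocytes and 2 of 12 for granulosa cells were lower, and of 6 for theca and stroma 1 was higher and 2 were lower, and their part in the member ratios was not tested.

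Exonic length moved with this difference. The 43 tested members under 1000 exonic bases had a median of 0.27, where all 1079 genes of that length had 0.03. The 30 longer members had a median of 0.09, where all 12503 genes of that length had -0.09. In both length classes the members were above the genes of like length. In the growth of gonad-derived oocytes, which shares the gonad-derived FGOs with this comparison, the shorter members had a median of -0.52 against -0.15 for genes of that length, and the longer ones -0.31 against -0.04.

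**Figure D5:**
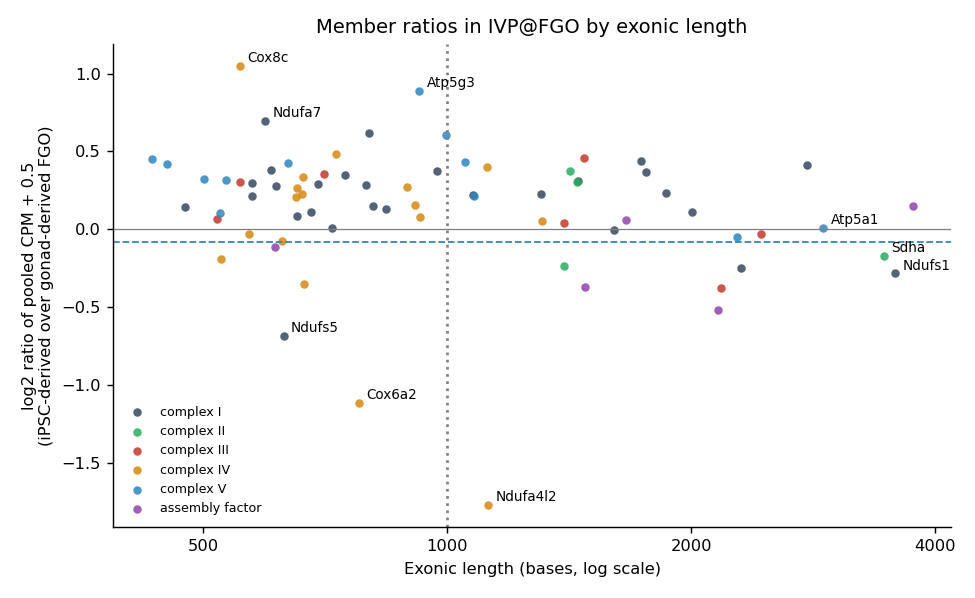
Log2 ratio of iPSC-derived over gonad-derived FGOs (y axis) against exonic length in bases on a log axis (x axis) for each tested member, coloured by complex. The dotted line marks 1000 bases and the dashed line the median of all genes, -0.08; 55 of 73 members lie above 0.

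The IVD step was examined by comparing gonad-derived with in vivo GROs, and gonad-derived with 6 dpp FGOs. Among GROs the member median was 0.03 against -0.03 for all genes. 1 member was higher, Ndufaf6 (1.11, from 2.56 to 6.08 CPM), where 9.94% of all genes were higher, and 1 was lower, Ndufaf1 (-0.79), where 12.4% were. Ndufa4l2 was not called over all oocytes, a result that depended on in vivo GRO 3 (397 CPM). Without that oocyte and gonad-derived GRO 7 (404 CPM), its pool was 5.78 CPM in vivo against 13.0 CPM after IVD, past 1.5-fold. Its medians over all oocytes, in the same order, were 5.93 and 10.8 CPM. Among FGOs the member median was -0.04 against 0.02, and -0.00333 against 0.03 without gonad-derived FGO 19. 1 member was higher, Ndufa4l2 (1.41, or 2.29 without 6 dpp FGO 11 and 0.87 without gonad-derived FGO 1), where 5.21% of genes were higher, and 1 was lower, Cox8c (-0.60), where 3.39% were. Cox8c was at -0.43 without 6 dpp FGO 3, at -0.45 with the oocytes kept on size and at -0.56 without gonad-derived FGO 19. Each of these counts is 1.37% of the members, below the background. No oocyte marker of 12 passed 1.5-fold at either stage. Among GROs 1 of 11 granulosa markers was higher and 4 were lower, and 2 of 3 theca and stroma markers were higher. Among FGOs 4 of 12 granulosa markers and 4 of 6 theca and stroma markers were lower in gonad-derived oocytes, the latter with a median of -1.20. Without 6 dpp FGO 12 these were 3 and 3, with medians of -0.03 and -0.48, so that much of the difference in theca and stroma markers rested on that library. Their part in the member ratios was not tested.

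The IVG step was examined by comparing 6 dpp with in vivo FGOs. The member median was 0.04 against -0.04 for all genes. 3 members were higher (4.11%), where 5.21% of genes were higher, namely Cox4i2 (0.90), Cox8c (0.74) and Ndufa4l2 (0.62). The ratio of Cox8c was 0.39 with the oocytes kept on size, and that of Ndufa4l2 was -0.26 without 6 dpp FGO 11. Uqcrc1 and Cyc1 lay within 1.5-fold over all oocytes, at 0.50 and 0.58, and past it with the oocytes kept on size, at 1.25 and 0.79, where 4 members were higher against 8.16% of genes. Over all oocytes Cyc1 also passed 1.5-fold with TMM and with DESeq2 scaling. 4 members were lower (5.48%), where 10.8% of genes were lower, namely Ndufaf1 (-1.10), Cox6a2 (-0.69), Ndufaf6 (-0.63) and Atp5g1 (-0.62). With DESeq2 scaling 2 were lower, Ndufaf6 and Atp5g1 then lying at -0.58 each. The ratio of Ndufaf1 was -0.68 with the oocytes kept on size. Both shares over all oocytes were below their background. Of the markers, 5 of 12 for oocytes were lower, with a median of -0.46, 3 of 12 for granulosa cells were higher and 3 lower, and 4 of 6 for theca and stroma were higher in 6 dpp FGOs, with a median of 1.00. Without 6 dpp FGO 12, 2 of the 6 theca and stroma markers were higher, with a median of 0.30, and of the granulosa markers 1 was higher and 4 were lower. The member median without it was again 0.04, with 3 members higher and 4 lower. Their part in the member ratios was not tested.

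Other genes of the pathway were described from 4 lists. Of 30 tested factors that assemble the complexes or insert their cofactors, 6 were lower (20.0%) and 1 was higher during growth in vivo, with a median of -0.16, where 26.6% of all genes were lower and 18.7% higher. Lyrm7, which helps to place the Rieske protein in complex III, was at -2.22 (33.4 CPM in GROs and 6.76 CPM in FGOs), the copper chaperone gene Sco1 at -1.12, and Uqcc1, a complex III assembly factor, at 0.97. Of 19 regulators of mitochondrial genes and of mitochondrial DNA, 7 were lower (36.8%) and 1 was higher, with a median of -0.28. Tfam, which packages and transcribes mitochondrial DNA, was at 139 CPM in GROs and 51.0 CPM in FGOs (-1.44), Gabpa, an ETS factor, at 29.0 and 7.82 CPM (-1.83), and Yy1 at -2.24, while Nrf1 was at 0.22. The polymerase genes Polg, Polg2 and Polrmt were at -0.99, -1.02 and -0.86. During growth of iPSC-derived and gonad-derived oocytes 8 and 10 of these 19 regulators were lower (42.1% and 52.6%), as were 8 and 10 of the 30 assembly genes (26.7% and 33.3%), where 27.6% and 21.0% of all genes were lower.

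The matrix enzymes that feed the chain lay closer to 0. Of 18 tested genes of the citric acid cycle and pyruvate dehydrogenase, 0 were lower and 0 were higher during growth in vivo, with a median of 0.07 and against the same shares of all genes. Of 19 genes of other electron carriers and of ubiquinone synthesis, 3 were lower (15.8%) and 2 higher (10.5%), with a median of 0.13. In IVP in FGOs most genes of these lists lay within 1.5-fold. The exceptions of largest size were the testis-type pyruvate dehydrogenase gene Pdha2, at 6.03 CPM in gonad-derived and 29.6 CPM in iPSC-derived FGOs (2.21), and the glycerol phosphate shuttle gene Gpd2, at 12.1 and 1.58 CPM (-2.61). Nrf1 was at -0.62 in that comparison.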

How the data were processed

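Single oocytes were sequenced by Smart-seq2 with 75-base single-end reads. As the labels and the methods of the study state, the authors aligned reads with STAR to GRCm38/mm10 with spike-in sequences, allowing up to 300 placements, and counted uniquely mapped reads with QuasR over the exons of 1 random transcript per gene (TxDb version 3.2.2). The use of strand is not given in the sources used here. The values used are the raw counts deposited by the authors, with 1 column for each of 163 oocytes. Identifiers were matched to symbols with RefSeq tables (21907 of 21950). The numbers of reads per library are given with the report. Precision is limited by the spread over oocytes and by the unknown number of animals or cultures behind each group.

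Counts were summed per group, divided by the summed library and multiplied by 1000000 to CPM. For growth, genes with above 1 CPM in at least 3 oocytes of the 2 groups were kept. For IVP, IVD and IVG these oocytes could come from any group of the same stage. A gene could thus be kept there through a group outside the comparison. To each level 0.5 CPM was added, and a call is a difference past 1.5-fold. Members were annotated with RefSeq (GRCm38.p6) and overlaps with GENCODE M21, where 74 symbols matched. Named are, per comparison and direction, up to 5 members of largest ratio with at least 5 CPM in the higher group, the per-length extremes of each complex, paralogues, X-linked and Sdh members, members with separated oocytes, and all members where a count is 5 or fewer. Members and lists were chosen with earlier results of these data known. Alternatives were TMM (edgeR 4.0.16) and DESeq2 1.42.0 size factors, pseudocounts, filters, fold, medians over oocytes, the size selection, subunits only, a library without its 50 highest genes, and leaving out each oocyte. Scripts ran in Python 3.11.15 and R 4.3.3 and were tested on simulated data.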

Additional observations from a re-analysis of the deposited data

How the results depend on the processing

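No paired analysis was possible because each group was treated as 1 sample and no result comes from a test, and the replicate numbers only name oocytes. The member medians of 7 of the 8 comparisons kept their direction and moved by less than the spread over oocytes under every alternative run over all members. The exception was growth of iPSC-derived oocytes, where TMM scaling gave 0.000279 and DESeq2 scaling -0.0201, while the members stayed 0.03 and 0.04 below the median of all genes. Without the 50 most counted genes the summed shares became 1.40%, 1.46% and 1.38% in iPSC-derived, gonad-derived and in vivo GROs and, in FGOs of iPSCs, gonads, 6 dpp follicles and in vivo growth, 1.23%, 1.10%, 1.12% and 1.12%, which changes the base and not the genes. Without assembly factors the share in in vivo FGOs was 0.865%. Leaving out each oocyte in turn, Ndufa4l2 ran from -1.79 to 0.093 in IVP among GROs and from -0.262 to 0.699 in IVG among FGOs. Counts moved with the settings, the lower members of gonad-derived growth being 14 with TMM, 15 with DESeq2 and 7 at a fold of 2, against 24. In iPSC-derived growth 4 members were higher with either scaling, against 2, and 10 were lower without the 50 genes, against 6. In vivo 7 were lower at a fold of 2. Of the members of 1000 exonic bases or more alone, the median was 0.02 in IVP among GROs and in IVD among FGOs, against -0.06 and -0.04 over all members. Counts in the IVP, IVD and IVG comparisons were 5 or fewer and moved with the fold and the filter. The alternatives by exonic length and without gonad-derived FGO 19, 6 dpp FGO 12, iPSC-derived GRO 8, in vivo GRO 10, in vivo GRO 19, iPSC-derived FGO 8 or gonad-derived GRO 15, and the marker lists without 6 dpp FGO 12, were chosen after seeing the data.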
